A study of Arabidopsis thaliana with 8 samples.

Results

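The 10 genes described here encode small heat shock proteins of Arabidopsis thaliana, looked up by locus among the 32678 genes of each deposited comparison table. They are ATHSP22.0, AT1G52560, HSP17.4, HSP17.6II, HSP17.6A, HSP21, HSP18.2, AT1G53540, HSP23.6-MITO and AT4G21870, and all 10 were found. The loci were picked with their group means in these data known, so their differences between treated and mock seedlings are given as a description, and the calls that the authors' deposited tables make of them are quoted without being read as support. RNA was measured in whole wild-type (Columbia) seedlings, 10 days old, grown under continuous light. Seedlings were exposed for 3 h to 50 μM ABA, to 50 μM PA or to 50 μM DPA, or were mock treated, with 2 biological replicates in each of these 4 groups. ABA is abscisic acid, the plant stress hormone. PA is phaseic acid, made when ABA is hydroxylated and its side group closes into a ring, and DPA is dihydrophaseic acid, in which a ketone of PA has been reduced to a hydroxyl. The study asked how the 2 breakdown products compare with the hormone itself.

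Small heat shock proteins are chaperones that hold unfolding proteins in a soluble state until HSP70 and HSP101 machines refold them, without using ATP themselves. Most are nearly silent in unstressed leaves and roots, are made in large amounts in heat, and many also accumulate in maturing seeds, where ABA is abundant. In heat, heat shock factors bind promoters at heat shock elements, arrays of inverted GAA units, whereas ABA-responsive bZIP factors bind elements with an ACGTG core.

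The files hold normalized counts as group means. Each mean was resolved into whole reads of its 2 libraries, which are told apart here only by size factor, the scaling by which the authors divided the reads. Values of 2 libraries are given with the library of higher size factor first. Reads assigned to genes ranged from 11.5 to 15.9 per library, in units of 1e6. The 2 libraries of a group correlated at Pearson r of 0.981 to 0.991, on log2(normalized count + 1), across the 16418 genes above a minimum mean. Most of the genes described here lie below that minimum, so these correlations do not cover them. With size factors of 0.816 to 1.17, a read was worth about 1 normalized count, and values under about 10 rest on few reads. The seedling label was matched by leaf, root and guard cell markers, for example LHB1B2, a light harvesting protein, at 45894, 61718, 56807 and 54988 normalized counts with ABA, PA, DPA and mock. Seed storage transcripts were present as well: CRA1, a cruciferin, was at 1777, 1840.2, 1064 and 1025 normalized counts in that order of groups, CRU3 at 429.6, 334, 207 and 188, and the albumin SESA1 at 18.1, 16.9, 15.6 and 48.4, the last being the mean of mock libraries at 3.06 and 93.8. None of the 3 seed storage genes listed passed the test in any of the 3 deposited tables. With ABA, markers of other cell types did pass it. The guard cell markers MYB60 and KAT1 were lower, at 139 and 267 normalized counts against 288 and 407 in mock, as were RBCS2B of leaves (15198 against 21785) and PYK10 of roots (22002 against 30106). The root genes MRN1 (673 against 28.1) and BGLU22 (965 against 226) were higher, and MRN1 was higher with PA as well (541). The part of these shifts in the results below was not tested. In whole seedlings, fewer cells of a type and less RNA per cell cannot be told apart.

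The heat shock elements of the members are shown first, because the 4 genes that carry the complete array include both the one with the largest and the one with the smallest fold among the members called higher with ABA. The array searched was GAANNTTCNNGAA, on either strand, in the 500 bases before the start codon in the RefSeq TAIR10.1 genome. It was found in 4 of the 10 members and in 1.2% of 27443 protein-coding genes. The 5 occurrences are given 5′ to 3′ on the strand of the gene, with the GAA and TTC units in capitals.
ATHSP22.0, chr4:6370382-6370404, plus strand: gatatTTCaaGAAacTTCttcat
HSP17.4 distal, chr3:16984949-16984971, minus strand: acataGAAgcTTCttGAAgccac
HSP17.4 proximal, chr3:16984868-16984890, minus strand: aacctGAAatTTCaaGAAacttg
HSP18.2, chr5:24062391-24062413, plus strand: caaacGAAacTTCctGAAatgcc
AT1G53540, chr1:19980241-19980263, plus strand: caccaGAAacTTCttGAAagcac
The first bases of the arrays lay 150, 233, 152, 236 and 264 bases before the start codon in that order. The array of ATHSP22.0 reads in the opposite direction from the gene. In ATHSP22.0 and HSP18.2 it lies downstream of the annotated transcript start, so windows around that start miss it.

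For HSP17.4, AT1G53540 and AT4G21870 the whole window of 300 bases is given, since the first 2 are class I relatives that were higher with ABA than in mock and the third was lower. Each runs from 270 bases before the annotated gene start to 30 bases after it, on the strand of the gene (RefSeq, TAIR10.1). Capitals mark the 3-unit array and the ACGTG core, which reads CACGT on the opposite strand.
HSP17.4, chr3:16984838-16985137, minus strand: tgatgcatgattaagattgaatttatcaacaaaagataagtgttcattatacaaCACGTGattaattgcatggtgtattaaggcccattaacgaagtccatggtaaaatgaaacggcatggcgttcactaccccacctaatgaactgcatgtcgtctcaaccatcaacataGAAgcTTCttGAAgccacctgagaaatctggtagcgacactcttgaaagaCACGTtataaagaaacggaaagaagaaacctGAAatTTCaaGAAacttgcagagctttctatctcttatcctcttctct
AT1G53540, chr1:19980029-19980328, plus strand: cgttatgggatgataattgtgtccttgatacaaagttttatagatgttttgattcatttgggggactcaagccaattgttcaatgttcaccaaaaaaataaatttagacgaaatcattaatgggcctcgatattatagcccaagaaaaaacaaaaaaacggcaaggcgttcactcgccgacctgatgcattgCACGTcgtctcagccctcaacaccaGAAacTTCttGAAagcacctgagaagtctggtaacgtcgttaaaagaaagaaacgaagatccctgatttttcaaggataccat
AT4G21870, chr4:11604608-11604907, minus strand: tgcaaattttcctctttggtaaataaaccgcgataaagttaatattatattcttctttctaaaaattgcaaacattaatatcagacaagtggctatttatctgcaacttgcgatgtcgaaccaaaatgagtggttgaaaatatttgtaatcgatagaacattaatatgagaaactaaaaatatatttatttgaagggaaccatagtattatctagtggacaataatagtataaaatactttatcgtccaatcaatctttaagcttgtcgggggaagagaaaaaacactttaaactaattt
The window of HSP17.4 held 2 arrays and ACGTG at 3 positions, 2 of them the strands of one palindrome. The window of AT1G53540 held 1 array and 1 ACGTG. That of AT4G21870 held neither. The windows of AT1G52560, HSP17.6II, HSP17.6A and HSP21, whose means were higher with ABA than in mock, also held neither. In such windows the array was present in 2 of 10 members against 0.463% of all genes, and ACGTG in 5 of 10 members against 26.3% of all genes. A pair of units (GAANNTTC or TTCNNGAA, which also lie within the array) was present in 6 of 10 members there, against 19.3% of all genes. In the 500 bases before the start codon, a pair was present in 10 of 10 members, AT4G21870 included, against 33.9% of all genes. It was also present there in 6 of the other 9 small heat shock protein genes. ACGTG was present in those 500 bases in 5 of 10 members against 34.9% of all genes. A match of letters says nothing about binding in these seedlings.

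**Figure D1:**
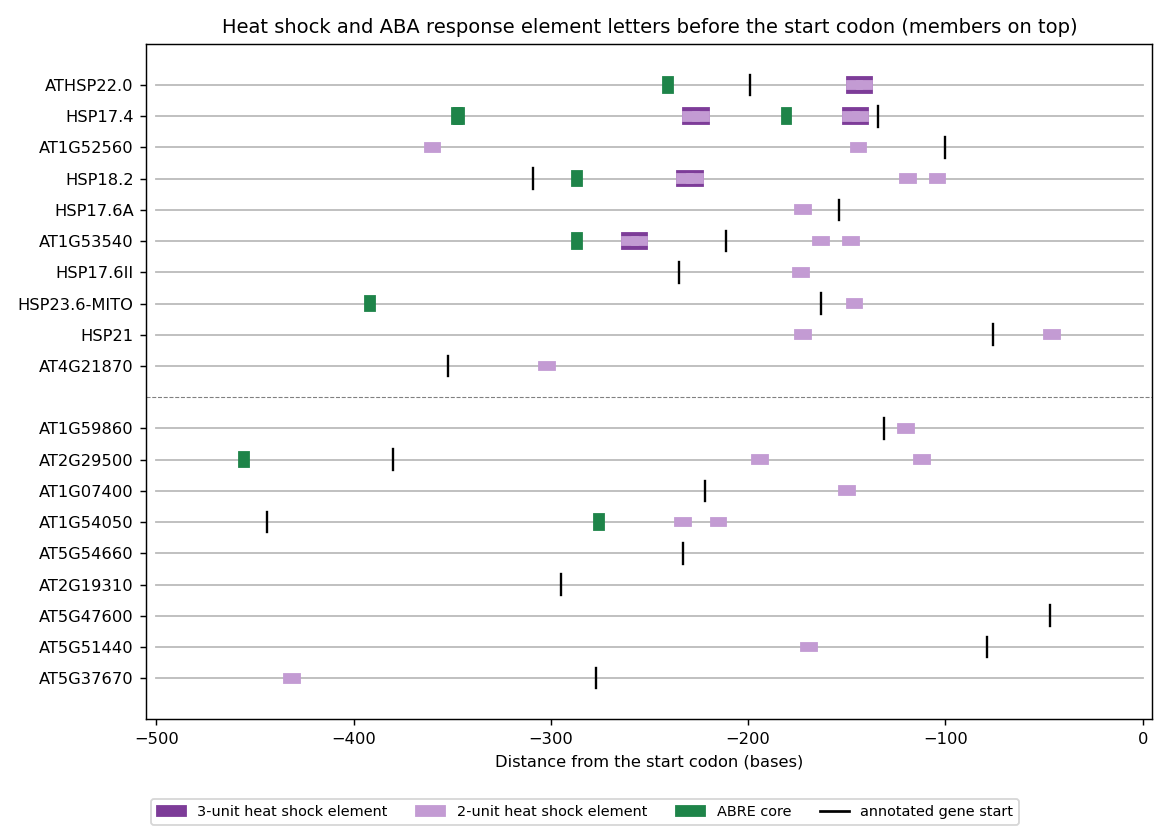
Positions of the 3-unit array (dark purple), its pairs of units (light purple) and the ACGTG core (green) in the 500 bases before the start codon of the 19 small heat shock protein genes, members above the dashed line. The x axis is the distance from the start codon in bases, and the black tick is the annotated gene start. The array is present in 4 of 10 members and in 0 of the other 9 genes.

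ABA was set against mock to see the response to the hormone itself. Of the 10 members, 9 had a higher mean with ABA than in mock and AT4G21870 had a lower one. The authors' deposited table called 7 members higher, 1 lower and 2 not changed beyond its threshold, at an adjusted p under 0.05. Over all 24069 genes tested in it, 15.4% were called, 10.3% as higher and 5.12% as lower. Since these means chose the members, nothing is read from their count. The median difference of the 10 members was 3.27 on the log2(mean + 1) scale, and that of all genes tested was -0.01. The 9 members without AT4G21870 summed to 738 and 611 normalized counts in the ABA libraries, against 23.5 and 31.6 in the mock libraries. Folds of members below are ratios of the reads summed over the 2 libraries of a group, each sum divided by the summed size factors, and their exact 95% intervals cover counting error only.

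The cytosolic class I proteins are HSP17.4, HSP18.2 and AT1G53540, each made from a single exon. HSP17.4 (AT3G46230, chr3:16984118-16984867, minus strand) had 235 and 162 normalized counts in the ABA libraries, 13.7 and 12.9 in the PA libraries, 4.99 and 3.10 in the DPA libraries, and 5.11 and 6.54 in the mock libraries. Both ABA libraries were far above all others and both PA libraries were above mock. The DPA libraries were below mock only on few reads, 5 and 3 against 5 and 6. The fold over mock was 35.2 (19.5 to 71.2) with ABA and 2.30 (1.10 to 5.14) with PA. With DPA it was 0.70 (0.244 to 1.91), an interval that covers no difference from mock. The gene shares 60 bases with AT3G46220 on the other strand and also lies opposite the non-coding RNA AT3G07365, which was not used here, and the protocol does not state strand. That neighbour stood at 407 and 426 normalized counts with ABA against 357 and 315 in mock, and its part in the HSP17.4 value was not tested.

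AT1G53540 (chr1:19980299-19981199, plus strand), the closest relative of HSP17.4 among the members at 85% identity of the coding sequence, had 18.3 and 19.6 normalized counts with ABA. It had 4.28 and 3.51 with PA, 0 and 0 with DPA, and 1.02 and 1.09 in mock. The order of the group means was that of HSP17.4, but outside ABA it rests on 8 reads with PA, 0 with DPA and 2 in mock. With 37 reads in the ABA libraries and 2 in mock, the fold with ABA was 17.8 (4.60 to 153). The fold was 3.75 (0.748 to 36.2) with PA and 0 (0 to 5.13) with DPA. Both of these intervals cover no difference from mock.

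HSP18.2 (AT5G59720, chr5:24062323-24063300, plus strand) had the smallest fold with ABA of the 7 members called higher. It had 47.8 and 52.7 normalized counts with ABA, 26.5 and 17.5 with PA, 17.0 and 10.3 with DPA, and 14.3 and 19.6 in mock. The ABA libraries stood apart from the rest, while the PA and the DPA libraries each overlapped mock. The fold with ABA was 2.95 (1.96 to 4.55). Its mock level was the highest after that of AT4G21870, per kilobase as well.

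Class II, the other main cytosolic group, is represented by HSP17.6II and HSP17.6A, tandem neighbours on the minus strand of chromosome 5 (chr5:3882231-3883111 and chr5:3883957-3884838). Their coding sequences were 86.1% identical, the highest of the 45 pairs of members, yet no stretch of 50 exonic bases, the read length, occurred in both genes. HSP17.6A had 35.7 and 30.6 normalized counts with ABA, 2.57 and 4.68 with PA, 0.999 and 1.03 with DPA, and 2.04 and 1.09 in mock. HSP17.6II had 13.0 and 14.7 with ABA, 1.71 and 0 with PA, 2.00 and 0 with DPA, and 0 and 1.09 in mock. Both genes were high in the ABA libraries alone, and outside them HSP17.6II rested on 1 to 2 reads a group. The folds with ABA were 21.2 (6.95 to 106) for HSP17.6A and 26.0 (4.29 to 1066) for HSP17.6II, whose mock groups held 3 reads and 1 read.

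Of the remaining members, 4 act in organelles. ATHSP22.0 (AT4G10250, chr4:6370338-6371372, plus strand), the endomembrane protein of the endoplasmic reticulum, had 240.1 and 208 normalized counts with ABA, 1.71 and 3.51 with PA, 0 and 0 with DPA, and 0 and 1.09 in mock. It had the widest gap between ABA and every other group, with 446 reads against 5, 0 and 1, and a fold over mock of 430.1 (76.8 to 17027) with ABA. AT1G52560 (chr1:19574538-19575866, minus strand), assigned to the mitochondrial small heat shock proteins, had 143 and 119 with ABA, 8.56 and 21.0 with PA, 3.99 and 7.23 with DPA, and 1.02 and 1.09 in mock. It was the member with the largest excess of PA over mock. The fold of AT1G52560 was 126 (34.5 to 1045) with ABA, 13.1 (3.31 to 114) with PA and 5.29 (1.16 to 49.2) with DPA, all over 2 mock reads.

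A second mitochondrial protein, HSP23.6-MITO (AT4G25200, chr4:12916926-12918110, plus strand), and the chloroplast protein HSP21 (AT4G27670, chr4:13818825-13819971, minus strand) were barely detected. HSP23.6-MITO had 2.61 and 4.90 normalized counts with ABA, 0 and 1.17 with PA, and 0 in all DPA and mock libraries. Its ABA level, on 7 reads, was 2.25 times the floor of 3 reads over the mock group. That ratio leaves out the counting error of the ABA reads. The exact interval of its fold over mock with ABA started lower, at 1.39. HSP21 had 3.48 and 0 with ABA and 0 in the other 6 libraries, so its only 4 reads came from 1 library. Neither was called in the authors' deposited table.

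AT4G21870 (chr4:11603481-11604637, minus strand), annotated as an HSP20-like chaperone, went against the rest. It had 52.2 and 41.6 normalized counts with ABA, 153 and 117 with PA, 354 and 421 with DPA, and 258 and 256 in mock. The 4 groups did not overlap, and the DPA libraries were the highest. Its fold over mock was 0.186 (0.147 to 0.232) with ABA, 0.536 (0.461 to 0.622) with PA and 1.50 (1.34 to 1.69) with DPA. Its coding sequence was as far from the class I and II genes as the organelle members were, since 41 of the 45 pairs of members lay between 37.8% and 55.3% identity.

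**Figure D2:**
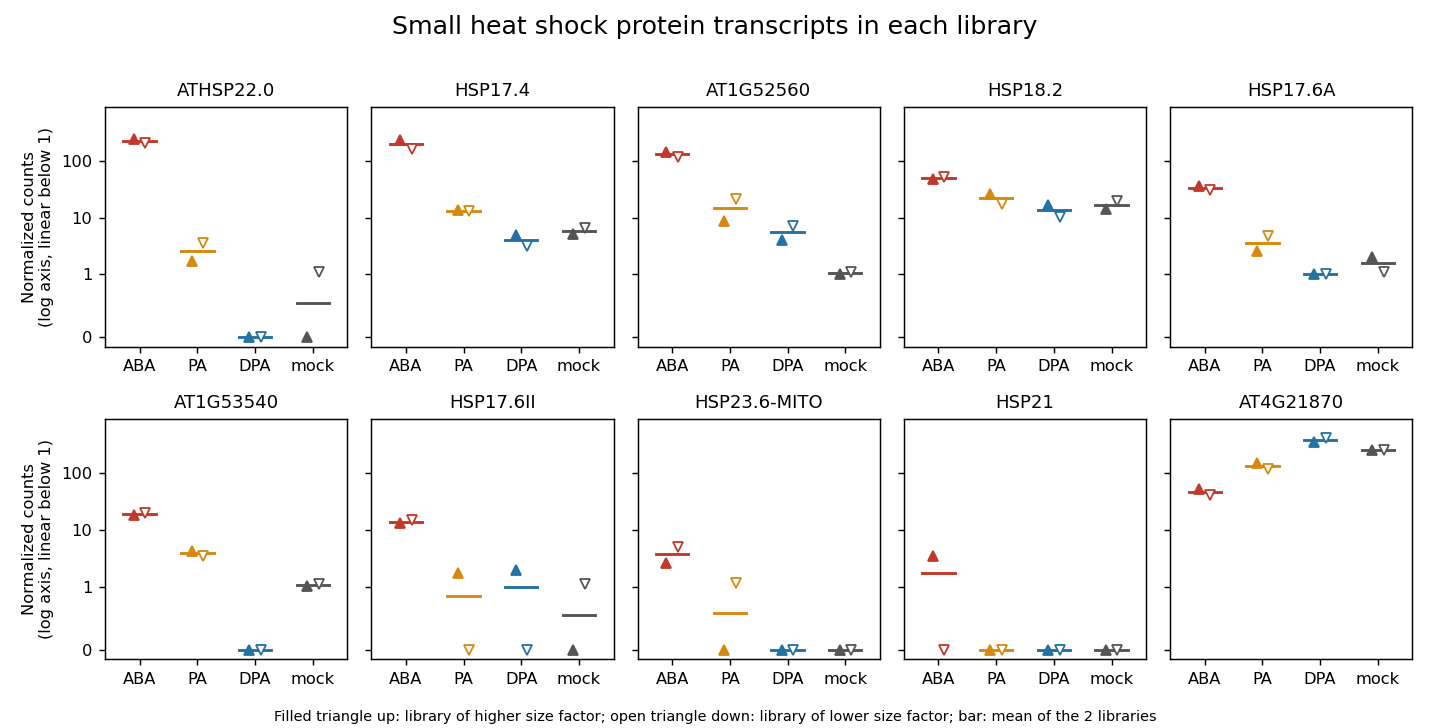
Normalized counts of the 10 small heat shock protein genes in each library (y axis, logarithmic above 1 and linear below), by treatment on the x axis. Each triangle is 1 library and the bar is the mean of the 2. In 9 panels the ABA group has the highest mean, and in AT4G21870 it has the lowest.

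Levels of different genes were compared per kilobase of exon. With ABA, HSP17.4 (274 normalized counts per kilobase) and ATHSP22.0 (217) led, and their libraries overlapped, at 324 and 223 for HSP17.4 and 232 and 201 for ATHSP22.0. AT1G52560 followed at 125, apart from both neighbours in the order. HSP18.2 (51.4), AT4G21870 (45.5) and HSP17.6A (37.6) formed a run in which each overlapped the next. AT1G53540 (21.0) and HSP17.6II (15.7) came after it without overlap, and HSP23.6-MITO and HSP21 were at 3.58 and 1.77. In mock, AT4G21870 came first at 249, followed without overlap by HSP18.2 at 17.3 and HSP17.4 at 8.05, and no other member exceeded 1.78 per kilobase.

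PA against mock gave means that were higher in 8 members and lower in AT4G21870 among the 9 that the authors' deposited table tests. Of these that table called AT4G21870 alone, as lower, with 2 of 9 at an unadjusted p under 0.05, against 1058 of all 23985 genes. Over its 23985 genes, 1.33% were called, 1.18% as higher and 0.146% as lower. Nothing is read from the members' count. The members' median log2(mean + 1) difference with PA was 0.85 over the 9 tested, against -0.01 for all genes. The sum of the 9 members without AT4G21870 was 59.1 and 64.3 normalized counts in the PA libraries against 23.5 and 31.6 in mock. AT4G21870, left out of these sums, went the other way, at 153 and 117 with PA against 258 and 256 in mock. Since the members were picked with their means known, nothing is read from the sums. The comparison shares its mock libraries with the one of ABA.

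DPA against mock gave 0 called members of the 8 tested in the authors' deposited table, with 1 of 8 at an unadjusted p under 0.05. That table called 3 of 23970 genes, which is 0.0125% (0.00834% higher and 0.00417% lower), and 220 had an unadjusted p under 0.05. Fitted to all 8 libraries, limma (a linear model on log2(normalized count + 1)) and its variant limma-voom called 0 genes, with 1081 and 1014 of 19617 at an unadjusted p under 0.05. Means of members were higher than mock in 3 and lower in 5, with a median log2(mean + 1) difference of -0.32 against 0.00 for all genes. The 9 members without AT4G21870 summed to 29.0 and 21.7 normalized counts with DPA, within the mock range of 23.5 to 31.6 at the higher library and below it at the lower.

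The compounds were then set against each other at the same dose and time, in 3 pairs. PA differs from ABA by an added hydroxyl that closes a ring, and 9 of 10 members had a lower mean with PA than with ABA, without overlap of libraries in 9 of 10. Libraries did not overlap in 55.8% of the 24028 genes with a read in either group. As a share of the ABA level, the PA level was 1.16% for ATHSP22.0, 6.17% for HSP17.6II, 6.70% for HSP17.4, 10.9% for HSP17.6A, 11.3% for AT1G52560, 15.6% for HSP23.6-MITO, 20.6% for AT1G53540 and 43.9% for HSP18.2. HSP21 had no read with PA. AT4G21870 stood at 288% of its ABA level. These shares include the level without hormone: the mock level of HSP18.2 was already 33.8% of its ABA level, against 0.243% to 5.58% for the other members that had mock reads and were higher with ABA.

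The limma fit left out genes whose mean over all groups was under 10 normalized counts, which left 5 members. ATHSP22.0, AT1G52560 and HSP17.4 passed that minimum through the ABA libraries, and the other 5 members were too low. Log2 differences between PA and ABA were -6.01 (95% interval -7.42 to -4.59) for ATHSP22.0, -3.18 (-4.29 to -2.06) for AT1G52560, -3.78 (-4.61 to -2.95) for HSP17.4, -1.18 (-1.98 to -0.38) for HSP18.2 and 1.50 (1.12 to 1.89) for AT4G21870. All 5 passed an adjusted p under 0.05, where 19.9% of all 19617 genes were called, 12.6% as lower and 7.34% as higher. The ABA values in this contrast are the ones the members were picked on, so nothing is read from that count. For HSP18.2 the call was lost without each of the 4 ABA and PA libraries in turn, with upper-quartile scaling and with no minimum mean.

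DPA against ABA gave wider differences of the same direction in each of the 5 members. They were -7.81 (-9.23 to -6.40) for ATHSP22.0, where both DPA libraries were at 0 and the size therefore depends on the added 1, -4.36 (-5.47 to -3.24) for AT1G52560, -5.30 (-6.13 to -4.48) for HSP17.4, -1.84 (-2.64 to -1.04) for HSP18.2 and 3.02 (2.64 to 3.41) for AT4G21870. All 5 were called, and of all genes 34.1% were, 18.6% as lower and 15.5% as higher, and nothing is read from the members' count here either. Among the 10 members, 9 had a lower mean with DPA than with ABA, with no overlap of libraries in 9 of 10, against 64% of the 24123 genes with a read.

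DPA differs from PA by the reduced ketone. The ABA libraries still enter this pair, through the shared estimate of the spread and through the minimum mean, which ATHSP22.0, AT1G52560 and HSP17.4 pass because of them. Among the 5 members fitted, AT4G21870 passed the limma test, with a log2 difference of 1.52 (1.14 to 1.91) between DPA and PA, where 3.83% of genes were called, 1.39% as higher and 2.44% as lower. The other 4 were not called: ATHSP22.0 at -1.81 (-3.22 to -0.39), AT1G52560 at -1.18 (-2.30 to -0.06), HSP17.4 at -1.53 (-2.35 to -0.70) and HSP18.2 at -0.66 (-1.46 to 0.14). These intervals are not adjusted for the number of genes, and for ATHSP22.0 rest on 0 reads with DPA and 5 with PA. HSP17.4 was called when either mock library was left out of the fit. Over all 10 members, 7 had a lower mean with DPA than with PA, 2 a higher one and HSP21 was at 0 in both. The libraries did not overlap in 7 of 10, against 49.1% of the 24019 genes with a read, and some of the 7 rest on few reads, such as HSP17.6A with 2 reads with DPA and 7 with PA.

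The Arabidopsis family holds further genes, and 9 with this domain that are not among the members were examined as a list. Because the 10 members were picked with their responses known, a smaller response of these 9 is partly a matter of that choice. With ABA all 9 means were above mock, and the median log2(mean + 1) difference was 0.61 against -0.01 for all genes tested. The authors' deposited table called 1 of the 9 higher, where 10.3% of all genes tested were called higher. The called gene was AT2G29500, a class I protein, at 45.2 and 40.4 normalized counts with ABA, 11.1 and 19.9 with PA, 7.99 and 10.3 with DPA, and 12.3 and 6.54 in mock. Its log2 fold change with ABA in the authors' deposited table was 2.19, with an adjusted p of 0.00201 by DESeq.

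AT1G07400, another class I gene, had 67.0 and 31.8 normalized counts with ABA and 8.17 and 21.8 in mock, and AT5G51440, a close relative of HSP23.6-MITO at 71.1% coding identity, had 189 and 108 with ABA and 75.6 and 54.5 in mock. Both were called higher by limma, with adjusted p of 0.0434 and 0.00824, and neither by the authors' deposited table. With ABA against mock, limma called 3 of the 8 genes of this list that it fitted, and 32.3% of all 19617 genes in either direction. Nothing is read from these calls. AT5G51440 had 57.4 and 60.8 with PA but 117 and 124 with DPA, a difference that limma did not call (adjusted p = 0.0659). AT2G19310 had the highest level per kilobase of all 19 small heat shock protein genes, 949 with ABA and 680.0 in mock. It had 1247 and 856 normalized counts with ABA and 761 and 746 in mock, and was not called. The other 5, AT1G59860, AT1G54050, AT5G54660, AT5G47600 and AT5G37670, had log2 fold changes with ABA between 0.11 and 1.08 and were not called either. With PA 0 of the 9 were called by the authors' deposited table, and 0 of the 8 fitted by limma or limma-voom, which left out AT5G47600. In these tests 0 had an unadjusted p under 0.05. With DPA 0 were called by the same 3 tests, and 1 had an unadjusted p under 0.05 in each.

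**Figure D3:**
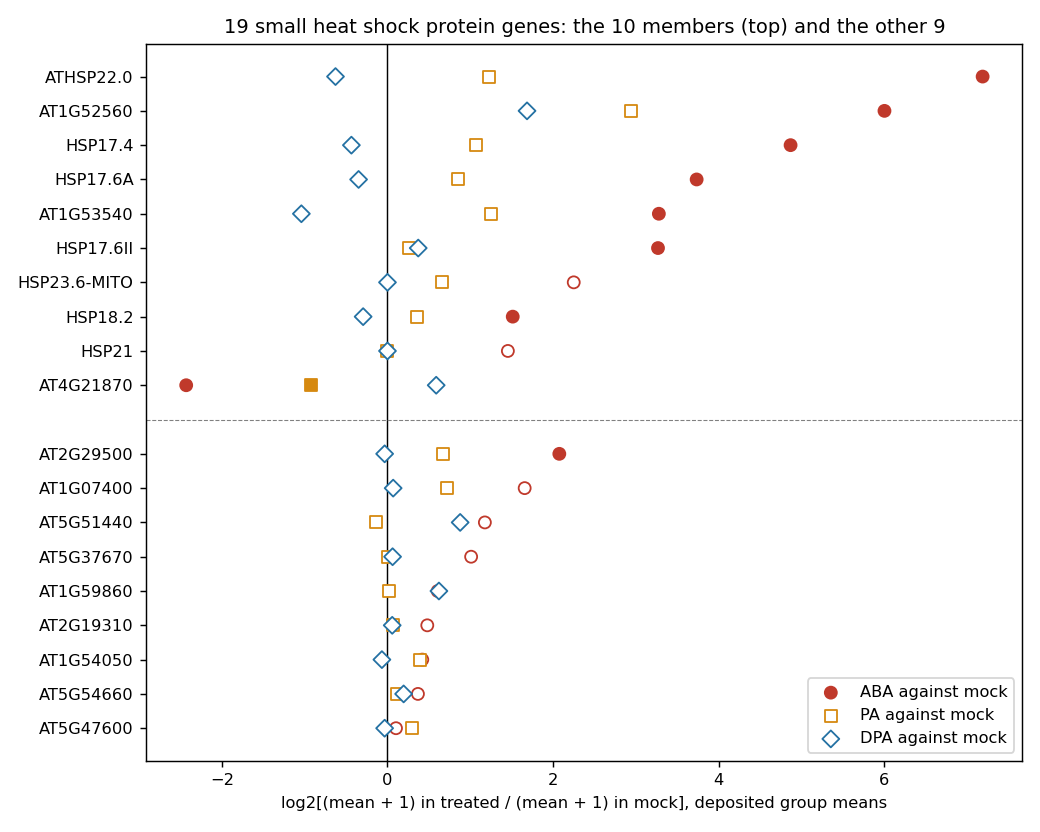
Differences from mock on the log2(mean + 1) scale (x axis) for the 10 members above the dashed line and the other 9 small heat shock protein genes below it, with ABA (circles), PA (squares) and DPA (diamonds). Filled symbols are called at an adjusted p under 0.05 in the authors' deposited tables. With ABA, 8 members and 1 other gene are filled.

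The partners of small heat shock proteins in refolding were taken as a list of 14 other heat-inducible chaperones and associated genes. With ABA the authors' deposited table called 10 of 14 higher and 0 lower, where 10.3% of all genes tested were called higher and 5.12% lower. This list and those below were chosen with earlier results of these data known, so nothing is read from their counts. The median log2(mean + 1) difference was 0.97 against -0.01 for all genes. APX2, an ascorbate peroxidase known for its induction by heat and strong light, had 22.6 and 30.6 normalized counts with ABA, 0 and 0 with PA, 0.999 and 0 with DPA, and 0 and 2.18 in mock. HSA32, needed for lasting acquired thermotolerance, had 241 and 212 with ABA, 31.7 and 38.6 with PA, 39.9 and 27.9 with DPA, and 32.7 and 22.9 in mock. Both were high in the ABA libraries alone, with log2 fold changes of 4.61 and 3.03 and adjusted p of 0.000115 and 8.37e-22 in the authors' deposited table.

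HSP70 (AT3G12580), a heat-inducible cytosolic chaperone, had 6525 and 4735 normalized counts with ABA, 2066 and 2083 with PA, 1486 and 2176 with DPA, and 1527 and 1378 in mock. GolS1, a galactinol synthase, had 642 and 604 with ABA, 269 and 327 with PA, 226 and 186 with DPA, and 207 and 155 in mock. Their log2 fold changes with ABA were 1.95 and 1.78 in the authors' deposited table (adjusted p of 3.79e-06 and 6.93e-20). With PA, HSP70 was the 1 gene of the 14 that the authors' deposited table called, at a log2 fold change of 0.51 and an adjusted p of 0.0143, while limma did not call it (adjusted p = 0.262). HSA32 and GolS1 each overlap an annotated neighbour, AT4G21323 on the same strand by 113 bases and AT2G47170 on the other strand by 43 bases, so a share of their reads is uncertain. With DPA 0 of 14 were called by the deposited table, and 0 of the 13 fitted by limma or limma-voom. In these tests 0 had an unadjusted p under 0.05.

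The contrasting list of 9 held HSP70, HSP90 and BiP genes taken as constitutive, most of which fold proteins without stress. BIP3 among them had only 1.74, 2.18, 1.50 and 2.69 normalized counts with ABA, PA, DPA and mock. Its place below mock therefore rests on few reads. With ABA all 9 means were below mock, and the authors' deposited table called 1, HSC70-1, the main cytosolic HSP70, at 40036 and 33542 normalized counts against 51342 and 48399.9 in mock. Its log2 fold change was -0.44, with an adjusted p of 0.0055 in the authors' deposited table, which called 5.12% of all genes tested lower. The median log2(mean + 1) difference of the 9 was -0.35 with ABA, -0.17 with PA and 0.21 with DPA. With PA and DPA, 0 of 9 were called by the deposited tables, and 0 of the 8 fitted by limma or limma-voom. In these tests 0 had an unadjusted p under 0.05.

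Heat shock factors are the transcription factors that bind heat shock elements. Of 21 listed, HSF4 was at 0 in every library, the reason for which was not tested, and 20 entered the deposited test with ABA. The authors' deposited table called 7 of them higher and 0 lower, where 10.3% of all genes tested were called higher. HSFA6B had 466 and 528 normalized counts with ABA, 82.2 and 108 with PA, 2.00 and 5.16 with DPA, and 5.11 and 6.54 in mock. It was high with ABA, intermediate with PA and at the mock level or below with DPA, and it was the only factor called with PA in that table (log2 fold change 4.03, adjusted p of 4.25e-13). HSFA6A had 933 and 766 with ABA, 87.3 and 53.8 with PA, 22.0 and 14.5 with DPA, and 26.6 and 39.2 in mock, and its log2 fold change with ABA was 4.69 in the authors' deposited table (adjusted p of 3.19e-41).

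HSFC1 and HSFB2A, a factor of the repressor class B, followed with log2 fold changes of 1.98 and 2.07 with ABA in the authors' deposited table (adjusted p of 1.71e-34 and 1.46e-20). HSFC1 lies opposite the non-coding RNA AT3G24518, whose reads cannot be told apart without strand. HSFA2, which sustains small heat shock protein expression in heat, had 46.1 and 18.4 normalized counts with ABA, 12.0 and 45.6 with PA, 23.0 and 20.7 with DPA, and 15.3 and 12.0 in mock. The ABA and PA libraries of HSFA2 spread widely, and it was not called in any comparison. The 3 factors of class A1 that start the heat response and are listed as HSF1, HSF3 and HSFA1D had log2 fold changes between 0.08 and 0.11 with ABA and were not called. The remaining factor of that class, HSFA1E, was called higher in the authors' deposited table at 1.27 (adjusted p of 0.000639). With DPA 0 of the 19 factors tested by the deposited table were called, and 0 of the 17 fitted by limma or limma-voom. At an unadjusted p under 0.05 were 1 in the deposited table, 3 in limma and 1 in limma-voom.

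**Figure D4:**
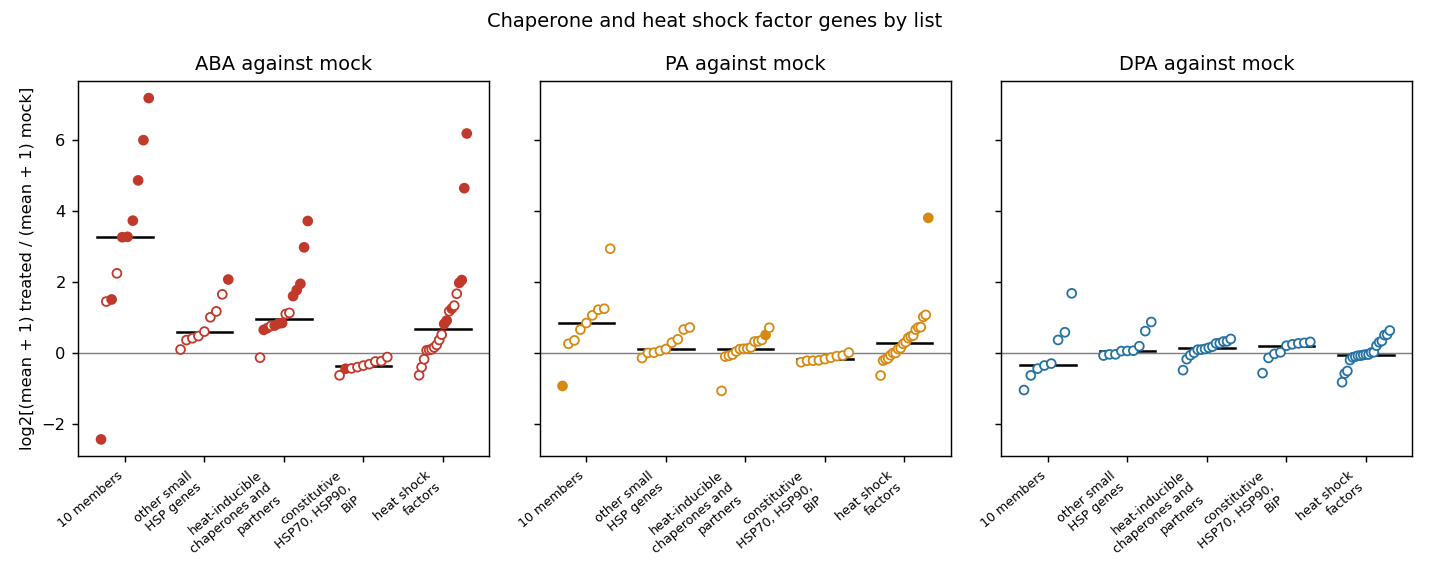
Differences from mock on the log2(mean + 1) scale (y axis) for each gene of 5 lists (x axis), in 1 panel for each compound. Filled points are called at an adjusted p under 0.05 in the authors' deposited tables and black bars are medians of the genes tested. The median of the members is 3.27 with ABA, 0.85 with PA and -0.32 with DPA.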

How the data were processed

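Per the labels' protocols, 8 seedling libraries were made from polyadenylated RNA with random priming and read from a single end. TopHat 1.4.1, HTSeq, DESeq 1.8.3 and the TAIR10 genome are named in the submitters' processing notes, without their roles. The deposited means are a signal, counts divided by a size factor and averaged over 2 libraries, per the file headers and the step sizes found in them. The p-values and adjusted p-values are the authors' deposited ones, and calls against mock use them at 0.05. Log2 fold changes were computed here from the deposited means. Reads assigned to no gene (48.2% to 48.5%) and ambiguous reads (0.278% to 0.315%) stayed out.

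Whole reads recovered from the deposited means gave a single split for 100% of values above 0. Size factors were 1.15 and 0.816 with ABA, 1.17 and 0.855 with PA, 1.00 and 0.968 with DPA, and 0.979 and 0.917 in mock. Compounds were compared with limma 3.58.1 in R 4.3.3 (pseudocount 1, minimum mean 10 normalized counts, trend, Benjamini-Hochberg over 19617 genes, 4 residual degrees of freedom), tested on simulated data. Positions and sequences come from TAIR10.1, a release of RefSeq with its own annotation. With 2 libraries a group, the spread of biological duplicates enters the p-values, but not alone. In limma it is shared by the 4 groups and moderated toward a trend across genes, with 5.37 prior degrees of freedom. The members and gene lists were chosen with earlier results of these data known. Beside the members and the other 9 family genes, named genes are those of each list called with PA or DPA and up to 4 with the largest log2 difference among those called with ABA. HSFA2, the class A1 factors and the markers were added after their values were seen.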

Additional observations from a re-analysis of the deposited data

How the results depend on the processing

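No called difference of a member or named gene changed sign under the alternatives run. Among differences not called, that of HSP18.2 with DPA against mock did (-0.31, and 0.02 in limma without the DPA library of size factor 0.968), as did small ones of the other 9 family genes with PA or DPA. No paired analysis was possible because the deposited columns carry no replicate numbers. The cause of the changes below was not tested, except that fewer or more genes enter under another minimum mean. Against mock, limma called 6335 genes with ABA (3713 deposited) and 0 with DPA (3 deposited). The members' median log2 difference with ABA, 3.27, was 3.71 and 1.87 with pseudocounts of 0.5 and 5, 4.85 in limma and 4.99 in limma-voom over 5 members, 4.30 with 2 groups only over 6 members, and 3.04 to 3.39 without each library in turn. With PA, 0.76 over 10 members, it was 0.35 with a pseudocount of 5, 1.07 in limma, 1.14 in limma-voom, -0.30 with 2 groups only over 2 members, and 0.71 to 1.07 without each library. With DPA, -0.15 over 10 members, it was 0.13 with 2 groups only, and -0.48 to 0.00 without each library.

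Between PA and ABA, genes called numbered 3909, and 2228 to 4794 without each library; members called numbered 5, but 8 with a minimum mean of 1, 2 by a normal test on the deposited p-values, and 4 to 5 without each library. Between DPA and ABA, 5 members became 9 with a minimum mean of 1 or none and 2 by the normal test. Between DPA and PA, 752 genes became 1658 with 2 groups only and 173 to 1812 without each library, and 1 member became 3 with a minimum mean of 1, 2 with none, and 1 to 2 without each library. With PA against mock, limma called AT1G52560 higher, a gene that reached its minimum mean through the ABA libraries, and limma-voom did not; they called 2.15% and 1.52% of all genes. In limma, AT4G21870 with PA against mock was not called without either PA library or the mock library of higher size factor, and HSP18.2 with ABA lost its call when the second ABA library (size factor 0.816) was left out. Leaving out the first (1.15) ended the limma calls of HSP101, Hsp70b and AT-HSFB2B. HSC70-1 lost its call in 6 of the limma settings. Depth limits HSP21, HSP23.6-MITO and HSP17.6II: a group at 0 still allows up to 1.48 to 1.58 normalized counts (3 reads), and levels of 1 to 3 reads have wide counting intervals.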
